A study of Mus musculus with 17 samples.

Results

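The ligands, receptors and inhibitors of the TGF-beta and activin branch of the TGF-beta superfamily were followed through 12 mouse RNA-seq libraries. The 10 genes were fixed by symbol and not by their level: the ligand genes Tgfb1, Tgfb2, Tgfb3, Inhba and Inhbb, the receptor genes Tgfbr1 and Tgfbr2, the extracellular antagonists Fst and Fstl3, and the intracellular inhibitor Smad7. They are 10 of 52850 symbols in the deposited count tables, each stood on its own line, and all 10 passed the filter on low counts that left 18329 genes for testing.

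TGF-beta ligands are secreted as latent dimers bound to the extracellular matrix and must be activated before they bind. The type II receptor TGFBR2 then binds the ligand and phosphorylates the type I receptor TGFBR1, which phosphorylates SMAD2 and SMAD3, and these enter the nucleus with SMAD4. Activins are dimers of the beta subunits that Inhba and Inhbb encode, signal to the same SMADs through their own receptors, and are sequestered by follistatin and the follistatin-like protein FSTL3, while SMAD7 is induced by the pathway and turns the type I receptors off. In the brain, TGF-beta is known as a signal of microglia and of injury responses, and in many tissues as a driver of matrix production.

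There were 3 YMdIDR libraries, whose material overexpressed YAP-MΔIDR, and 4 YAP-M libraries, from brain tumours raised by in utero electroporation of YAP-M, which puts plasmid DNA into cells of the fetal brain. A further 2 libraries, NSC-YAP, came from progenitors of the neural lineage that were derived from embryonic stem (ES) cells and overexpressed YAP, the transcriptional coactivator of the Hippo pathway, and 3 SVZ libraries were labelled wild-type. For YMdIDR the labels give tumour tissue in one field and, in another, ES-derived progenitors, and for SVZ a brain tumour label stands beside the wild-type label, so the material of these groups is not settled by the labels, and neither are strain, age, promoter or separate animals. Where replicates were not separate animals or cultures, the p-values measure technical spread only.

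Library totals ran from 20784130 to 25463303 counts. Mitochondrial genes took 4.91% to 7.05% of counts in the YMdIDR, YAP-M and NSC-YAP libraries, against 12.7% to 17.0% in SVZ, and the part of this in the differences from SVZ was not tested. Among cell type markers, the neural stem and progenitor list (8 genes) summed to 2716 to 3845 CPM (counts scaled to a common library size) in YMdIDR, 1713 to 2336 CPM in YAP-M, 3928 to 4173 CPM in NSC-YAP and 274 to 309 CPM in SVZ. All 11 microglia and macrophage markers and all 8 endothelial markers reached 1 CPM in every YMdIDR, YAP-M and SVZ library, whereas in both NSC-YAP libraries 9 of 11 and 6 of 8 of them stayed under 1 CPM, and the endothelial marker Cldn5 had no count. The microglia and macrophage list summed to 1523 to 2211 CPM in YMdIDR, 1389 to 1832 CPM in YAP-M, 40.6 to 41.7 CPM in NSC-YAP and 402 to 537 CPM in SVZ. Nearly all of the NSC-YAP sum was Cd68, at 39.3 to 39.8 CPM, above its 13.5 to 14.8 CPM in SVZ. P2ry12 went against the sums, averaging 26.3 CPM in YMdIDR, 51.5 CPM in YAP-M and 90.0 CPM in SVZ. Neuron markers came to 444 to 454 CPM in YMdIDR, 215 to 555 CPM in YAP-M, 103 to 105 CPM in NSC-YAP and 3945 to 4501 CPM in SVZ. Oligodendrocyte markers came to 348 to 1256 CPM in YMdIDR, 632 to 3304 CPM in YAP-M, 147 CPM in NSC-YAP and 28310 to 34062 CPM in SVZ, so both lists were highest in SVZ. The oligodendrocyte sum of NSC-YAP was mostly Cnp, at 129 to 130 CPM. Astrocyte markers stood at 537 to 1669 CPM in YMdIDR, 1934 to 2882 CPM in YAP-M, 4085 to 4112 CPM in NSC-YAP and 4143 to 5591 CPM in SVZ. In NSC-YAP this sum was mostly Slc1a3, at 3697 to 3750 CPM. Gfap, Aqp4, Aldh1l1 and Gja1 averaged 11.2, 2.93, 8.09 and 2.06 CPM there, below every library of the other groups. Slc1a2 averaged 351 CPM in NSC-YAP, between YAP-M at 280 CPM and SVZ at 3047 CPM. Multiciliated ependymal markers were low, at 9.36 to 28.4 CPM in YMdIDR, 15.0 to 31.8 CPM in YAP-M, 53.5 to 53.8 CPM in NSC-YAP and 64.9 to 87.5 CPM in SVZ. In bulk libraries, more cells of a type and more RNA per cell cannot be told apart.

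A gene was called where the edgeR adjusted p was under 0.05 and the log2 fold change at least 1 in size. In YMdIDR, 8 of the 10 genes were called higher than in SVZ and none lower, where 26.9% of all tested genes passed as higher and 29.6% as lower. In YAP-M, 9 of 10 were called higher than in SVZ and none lower, against 25.8% and 28.9% of all tested genes. Relative to NSC-YAP, 9 of 10 were called higher in YMdIDR and in YAP-M, against backgrounds of 27.4% and 28.9%, and Inhbb was the gene called lower in both, against 20.4% and 21.6%. NSC-YAP itself had 1 gene called higher than SVZ (background 17.5%) and 4 called lower (background 27.6%). Between YMdIDR and YAP-M none of the 10 was called, against 16.4% of all tested genes. These comparisons share libraries, so they are not independent of each other.

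The median log2 fold change of the 10 genes was 3.44 for YMdIDR and 3.08 for YAP-M over SVZ, beside medians of -0.01 and -0.04 over all tested genes. It was 4.97 for YMdIDR and 4.51 for YAP-M over NSC-YAP, beside 0.13 and 0.10, and -0.74 for NSC-YAP over SVZ, beside -0.10. With Inhba set to its bound these medians stayed as they were. Under quantile normalization the all-gene median moved by -0.26 for YMdIDR over NSC-YAP, -0.28 for YAP-M over NSC-YAP, 0.35 for NSC-YAP over SVZ and 0.11 for YMdIDR over SVZ. The whole-table split of calls then turned to 3700 higher and 4657 lower for YMdIDR against NSC-YAP (5026 and 3744 with TMM scaling), to 3846 and 5045 for YAP-M against NSC-YAP (5293 and 3951), and to 4591 and 3643 for NSC-YAP against SVZ (3199 and 5061). The 10 genes kept every call against NSC-YAP and against SVZ from YMdIDR and YAP-M under that scaling.

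**Figure D1:**
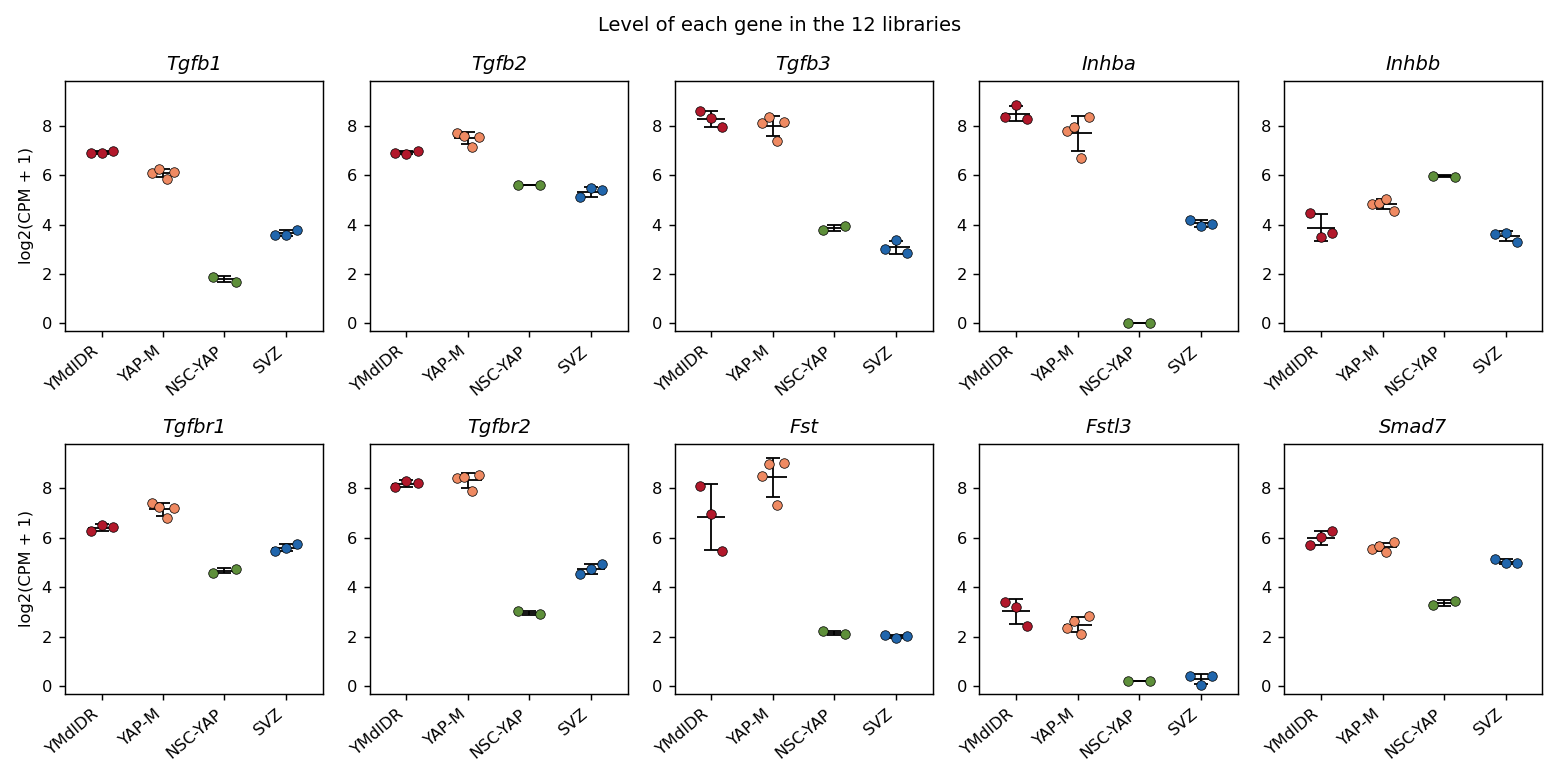
Level of each of the 10 genes as log2(CPM + 1) in every library (points), with the mean and SD of the log values per group (bars) for YMdIDR (n = 3), YAP-M (n = 4), NSC-YAP (n = 2) and SVZ (n = 3). YMdIDR and YAP-M lie above NSC-YAP and SVZ for 9 genes, Inhba is at 0 in both NSC-YAP libraries, and Inhbb is highest in NSC-YAP. The share of all tested genes that lie apart in this way is not given here.

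Among the TGF-beta ligands the largest difference from SVZ was at Tgfb3, the ligand best known from palate and lung development (ENSMUSG00000021253, mm10 chromosome 12, 86056745 to 86079041, minus strand). Its level was 383, 311 and 247 CPM in the YMdIDR libraries, 274, 320, 166 and 281 CPM in YAP-M, 12.8 and 14.3 CPM in NSC-YAP, and 7.0, 9.30 and 6.26 CPM in SVZ. YMdIDR and YAP-M overlapped with each other and lay far above the other groups. Over SVZ the log2 fold change was 5.38 ± 0.29 in YMdIDR and 5.11 ± 0.28 in YAP-M (SE, edgeR adjusted p = 3.85e-08 and 5.85e-08). Over NSC-YAP it was 4.54 ± 0.33 and 4.27 ± 0.32 (edgeR adjusted p = 4.37e-07 and 4.97e-07). Between NSC-YAP and SVZ the libraries did not overlap, but the difference of 0.84 ± 0.28 stayed under the fold required for a call (edgeR adjusted p = 0.018), and it was called without SVZ replicate 2 (1.05) and under quantile normalization (1.11).

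Tgfb1, the ligand with the broadest expression and the main one of immune cells (ENSMUSG00000002603, chromosome 7, 25687002 to 25705077, plus strand), was ordered differently. It stood at 118, 118 and 126 CPM in YMdIDR, at 66.7, 74.7, 56.6 and 68.3 CPM in YAP-M, at 2.65 and 2.24 CPM in NSC-YAP, and at 11.1, 10.8 and 12.8 CPM in SVZ. No group overlapped with another. YMdIDR exceeded SVZ by a log2 fold change of 3.39 ± 0.13 and YAP-M by 2.53 ± 0.12 (SE, edgeR adjusted p = 4.18e-09 and 2.26e-08), while NSC-YAP was lower than SVZ at -2.23 ± 0.15 (edgeR adjusted p = 4.07e-07). The microglia and macrophage sums given above follow the same order over NSC-YAP, SVZ and the other groups, but those of YMdIDR and YAP-M overlap where Tgfb1 does not. Their part in the Tgfb1 levels was not tested.

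Tgfb2, a ligand of embryonic and neural tissue (ENSMUSG00000039239, chromosome 1, 186622792 to 186705989, minus strand), varied least of the ligands. Its level was 118, 115 and 125 CPM in YMdIDR, 208, 193, 141 and 185 CPM in YAP-M, 47.7 and 47.4 CPM in NSC-YAP, and 33.4, 43.0 and 40.6 CPM in SVZ. YAP-M was the highest group here, above every YMdIDR library. The log2 fold change over SVZ was 1.62 ± 0.14 in YMdIDR and 2.22 ± 0.14 in YAP-M (SE, edgeR adjusted p = 1.46e-06 and 1.51e-07). NSC-YAP and SVZ did not overlap, but the difference of 0.29 ± 0.16 did not pass the test (edgeR adjusted p = 0.127).

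Divided by gene length, the make-up of the TGF-beta ligand transcripts differed between groups as well as their sum. The 3 genes together came to 120 to 157 CPM per kb in YMdIDR, 84.6 to 143 in YAP-M, 12.5 to 12.9 in NSC-YAP, and 10.0 to 12.3 CPM per kb in the SVZ libraries. Tgfb3 made up 67.0% ± 5.61 of this sum in YMdIDR (SD, n = 3) and 62.8% ± 3.63 in YAP-M (SD, n = 4), but 31.5% ± 1.92 in NSC-YAP (SD, n = 2) and 19.7% ± 3.14 in SVZ (SD, n = 3). Tgfb2 made up 15.3% ± 2.58 and 26.1% ± 2.51 in YMdIDR and YAP-M, and 64.7% ± 1.41 and 59.8% ± 2.07 in NSC-YAP and SVZ. The leading ligand transcript was thus Tgfb3 in every YMdIDR and YAP-M library and Tgfb2 in every NSC-YAP and SVZ library. Tgfb1 held 17.7% ± 3.03 in YMdIDR, 11.1% ± 1.45 in YAP-M, 3.82% ± 0.51 in NSC-YAP and 20.5% ± 2.70 in SVZ. These shares are descriptions and were not tested.

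**Figure D2:**
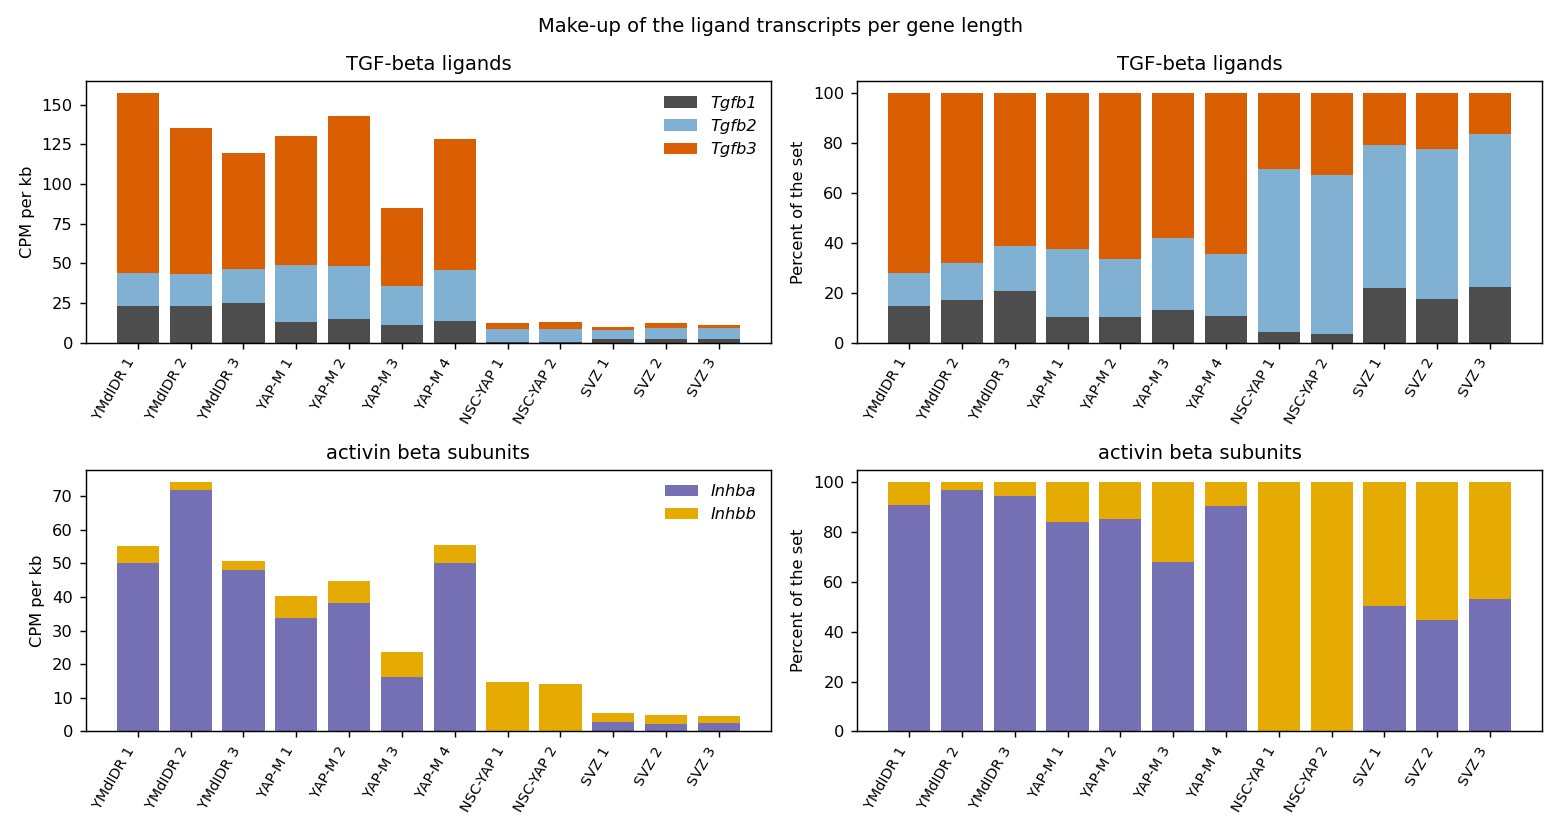
Summed transcript level per gene length (CPM per kb, left) and its percentage make-up (right) in each library, for the TGF-beta ligands (top) and the activin beta subunits (bottom). Tgfb3 fills 61.0% to 72.1% of the TGF-beta ligand sum in YMdIDR and 57.9% to 66.3% in YAP-M, against 30.1% to 32.8% in NSC-YAP and, in the SVZ libraries, 16.2% to 22.3%, and Inhbb is the whole activin subunit sum in NSC-YAP.

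The activin subunit genes Inhba and Inhbb were called in opposite directions in every comparison with NSC-YAP, while over SVZ both were called higher in YAP-M and Inhba was called higher in YMdIDR. Inhba, whose product forms activin A (ENSMUSG00000041324, chromosome 13, 16011851 to 16031621, plus strand), had 321, 458 and 307 CPM in YMdIDR, 216, 244, 103 and 320 CPM in YAP-M, no count in either NSC-YAP library, and 17.2, 14.2 and 15.2 CPM in SVZ. A count of 0 in both NSC-YAP libraries allows up to 0.0611 CPM, from 3 counts over the group. Against that floor Inhba was at least 5927-fold higher in YMdIDR and at least 3610-fold higher in YAP-M, and NSC-YAP was at least 254-fold lower than SVZ, where the gene had 1001 counts over 3 libraries. Floors cover counting error only. Over SVZ the log2 fold change was 4.54 ± 0.38 in YMdIDR and 3.83 ± 0.36 in YAP-M (SE, edgeR adjusted p = 1.97e-06 and 4.93e-06).

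Inhbb, whose product forms activin B (ENSMUSG00000037035, chromosome 1, 119415465 to 119422248, minus strand), had 21.4, 10.3 and 11.6 CPM in YMdIDR, 27.1, 28.1, 32.1 and 22.5 CPM in YAP-M, 62.0 and 59.8 CPM in NSC-YAP, and 11.3, 11.8 and 8.94 CPM in SVZ. The NSC-YAP libraries were above all others, and YMdIDR overlapped with SVZ. NSC-YAP exceeded SVZ by a log2 fold change of 2.51 ± 0.27 (SE, edgeR adjusted p = 1.14e-05), YMdIDR was lower than NSC-YAP at -2.08 ± 0.27 (edgeR adjusted p = 4.06e-05) and YAP-M at -1.15 ± 0.25 (edgeR adjusted p = 0.00145). The YAP-M call against NSC-YAP was lost with the replicate number as a block (-0.997). YAP-M exceeded SVZ by 1.36 ± 0.24 (edgeR adjusted p = 0.000283), and YMdIDR did not pass the test against SVZ (0.43 ± 0.25, edgeR adjusted p = 0.13).

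Per gene length, Inhba made up 94.1% ± 2.95 of the summed activin subunit transcripts in YMdIDR (SD, n = 3), 82.0% ± 9.68 in YAP-M (SD, n = 4), 0 in NSC-YAP and 49.3% ± 4.36 in SVZ (SD, n = 3). The Inhba and Inhbb promoter windows are shown because Inhba had no count in NSC-YAP, where Inhbb was highest. Each runs from 250 bases before to 50 after the gene's start in RefSeq (GRCm38.p6, the assembly of mm10), 5′ to 3′ on the gene's strand, with CpG dinucleotides in capitals. Inhba, chr13:16011601-16011900, plus strand, and Inhbb, chr1:119422199-119422498, minus strand, read as follows.
Inhba: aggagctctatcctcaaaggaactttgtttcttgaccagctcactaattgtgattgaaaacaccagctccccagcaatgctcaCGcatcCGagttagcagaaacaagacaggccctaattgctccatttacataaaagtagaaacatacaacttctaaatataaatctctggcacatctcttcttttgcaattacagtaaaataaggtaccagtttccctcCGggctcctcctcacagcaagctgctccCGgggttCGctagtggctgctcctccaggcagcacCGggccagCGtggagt
Inhbb: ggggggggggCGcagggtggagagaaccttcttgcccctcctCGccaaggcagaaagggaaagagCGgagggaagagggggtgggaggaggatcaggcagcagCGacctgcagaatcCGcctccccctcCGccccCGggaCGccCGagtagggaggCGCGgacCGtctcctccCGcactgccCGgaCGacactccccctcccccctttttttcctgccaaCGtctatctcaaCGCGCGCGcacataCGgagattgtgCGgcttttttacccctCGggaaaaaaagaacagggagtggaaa
The Inhba window holds 7 CpG dinucleotides and 47.7% G or C, the Inhbb window 23 and 64.3%. Among 32851 RefSeq promoter windows of this length the median was 7 CpG dinucleotides and 52.7% G or C, and 47.9% of windows had fewer CpG dinucleotides than Inhba and 78.5% fewer than Inhbb.

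Both receptor genes were higher in YMdIDR and YAP-M, with the larger differences at the ligand-binding type II receptor. Tgfbr2 (ENSMUSG00000032440, chromosome 9, 116084293 to 116175360, minus strand) stood at 264, 315 and 295 CPM in YMdIDR, 337, 352, 236 and 365 CPM in YAP-M, 7.12 and 6.48 CPM in NSC-YAP, and 22.2, 26.0 and 29.3 CPM in SVZ. YMdIDR and YAP-M overlapped, and no library of either came near the other groups. Over SVZ its log2 fold change was 3.49 ± 0.18 in YMdIDR and 3.64 ± 0.17 in YAP-M (SE, edgeR adjusted p = 2.98e-08 and 2.62e-08). NSC-YAP was lower than SVZ at -1.93 ± 0.20 (edgeR adjusted p = 8.63e-06).

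Tgfbr1, the type I receptor that phosphorylates SMAD2 and SMAD3 (ENSMUSG00000007613, chromosome 4, 47353222 to 47414931, plus strand), had 75.9, 90.9 and 86.6 CPM in YMdIDR, 169, 152, 109 and 144 CPM in YAP-M, 23.2 and 25.7 CPM in NSC-YAP, and 42.8, 47.4 and 53.4 CPM in SVZ. The 4 groups did not overlap. YAP-M exceeded SVZ by a log2 fold change of 1.58 ± 0.15 (SE, edgeR adjusted p = 2.34e-06), and YMdIDR by 0.82 ± 0.15 (edgeR adjusted p = 0.000433), under the fold required for a call. NSC-YAP stood at -0.97 ± 0.17 relative to SVZ (edgeR adjusted p = 0.0005), which passed the fold threshold without NSC-YAP replicate 2 (-1.04) or SVZ replicate 1 (-1.03).

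Per gene length, the ratio of Tgfbr2 to Tgfbr1 transcripts was 2.78, 2.77 and 2.72 in the YMdIDR libraries, 1.59, 1.85, 1.72 and 2.02 in YAP-M, 0.245 and 0.201 in NSC-YAP, and 0.414, 0.438 and 0.438 in SVZ. The type II receptor transcript was thus the more abundant in every YMdIDR and YAP-M library and the less abundant in every NSC-YAP and SVZ library. The ratio was not tested.

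The follistatin gene Fst, whose product binds activins with high affinity (ENSMUSG00000021765, chromosome 13, 114452262 to 114458949, minus strand), had the largest difference of the 10 genes in YAP-M over SVZ. It had 275, 124 and 43.0 CPM in YMdIDR, 360, 504, 160 and 515 CPM in YAP-M, 3.66 and 3.30 CPM in NSC-YAP, and 3.22, 2.88 and 3.03 CPM in SVZ. The spread within YMdIDR and within YAP-M was wide, and the lowest of these libraries was still above every NSC-YAP and SVZ library. Over SVZ the log2 fold change was 5.59 ± 0.69 in YMdIDR and 6.98 ± 0.72 in YAP-M (SE, edgeR adjusted p = 1.82e-05 and 4.89e-06). The difference of NSC-YAP from SVZ did not pass the test (0.19 ± 0.71, edgeR adjusted p = 0.827), and the sign turned to -0.28 with the replicate number as a block. The SE rests on a spread shared with the wide YMdIDR and YAP-M libraries, while the NSC-YAP and SVZ libraries did not overlap.

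Fstl3, a follistatin relative that also binds activins (ENSMUSG00000020325, chromosome 10, 79777272 to 79782630, plus strand), was low everywhere. It reached 9.57, 8.24 and 4.46 CPM in YMdIDR and 4.08, 5.15, 3.37 and 6.05 CPM in YAP-M, and had 4 and 4 counts in the NSC-YAP libraries and 7, 1 and 7 counts in SVZ. YMdIDR and YAP-M overlapped and lay above the rest. Over SVZ it was higher by 4.96 ± 0.51 in YMdIDR and 4.29 ± 0.50 in YAP-M (log2, SE, edgeR adjusted p = 4.69e-06 and 1.21e-05). With so few counts in NSC-YAP and SVZ their difference had no settled sign, at -0.51 ± 0.73 with edgeR (adjusted p = 0.56) and 1.58 under quantile normalization with limma (adjusted p = 0.00662).

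Set against each other per gene length, Fst transcripts stood at 1.62, 0.514 and 0.265 times Inhba in the YMdIDR libraries, at 3.15, 3.92, 2.95 and 3.04 times in YAP-M, and at 0.354, 0.384 and 0.378 times in SVZ. The antagonist transcript was the more abundant in every YAP-M library, and the groups YMdIDR and YAP-M did not overlap in this ratio. In NSC-YAP the ratio has no value because Inhba had no count. The ratio was not tested.

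Smad7, the inhibitory SMAD (ENSMUSG00000025880, chromosome 18, 75367529 to 75395935, plus strand), had 51.4, 63.5 and 75.9 CPM in YMdIDR, 45.4, 50.5, 42.2 and 56.1 CPM in YAP-M, 8.75 and 9.95 CPM in NSC-YAP, and 34.4, 30.6 and 30.2 CPM in SVZ. YMdIDR and YAP-M overlapped, SVZ lay below both, and NSC-YAP was the lowest. NSC-YAP was lower than SVZ by a log2 fold change of -1.76 ± 0.18 (SE, edgeR adjusted p = 8.29e-06). YMdIDR was called higher than SVZ at the edge of the fold threshold (1.00 ± 0.15, edgeR adjusted p = 9.6e-05), a call lost without YMdIDR replicate 3 (0.86), SVZ replicate 2 (0.99), SVZ replicate 3 (0.98) or NSC-YAP replicate 2 (1.00), and with the replicate number as a block (0.99). YAP-M differed from SVZ by 0.61 ± 0.14 and was not called (edgeR adjusted p = 0.00212).

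**Figure D3:**
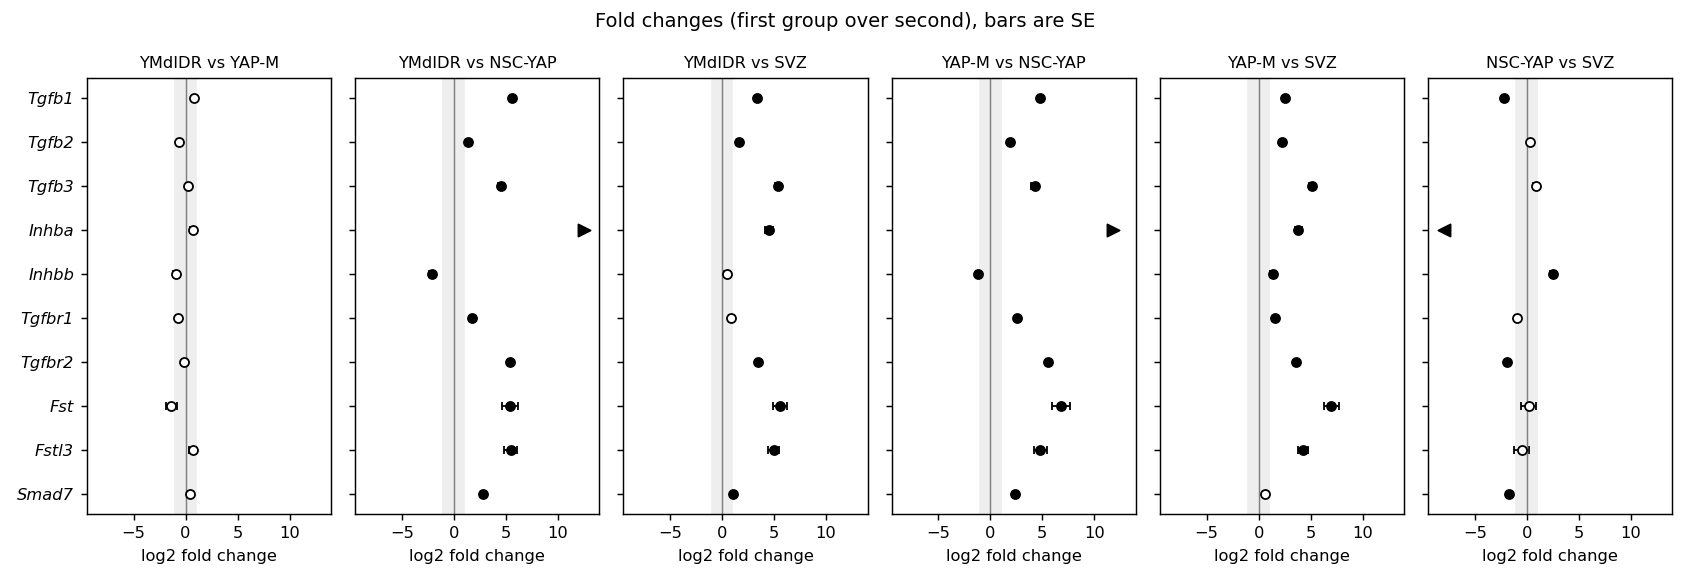
Log2 fold change of each gene (first group over second, edgeR; bars are SE) in the 6 comparisons. Filled circles were called, open circles were not, the grey band spans changes smaller than 1 in size, and triangles for Inhba mark bounds against the floor of 3 counts in NSC-YAP; the 10 open circles of YMdIDR against YAP-M contrast with 8 and 9 filled ones over SVZ.

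YMdIDR and YAP-M differ in the construct and, as the labels leave it, perhaps in the material, which cannot be told apart here. Every library of both groups held all 11 microglia and macrophage markers and all 8 endothelial markers at 1 CPM or more. With edgeR 0 of the 10 genes were called; 7 had an unadjusted p under 0.05, 5 an adjusted p under 0.05 with a fold under the threshold, and DESeq2 called 1, Fst. By the adjusted p alone, 43.5% of all tested genes differed. Tgfb1 was higher in YMdIDR by 0.86 ± 0.11 (edgeR adjusted p = 0.000175) and Smad7 by 0.39 ± 0.14 (edgeR adjusted p = 0.0423). Tgfb2 stood at -0.60 ± 0.13 (edgeR adjusted p = 0.00402), Tgfbr1 at -0.77 ± 0.14 (edgeR adjusted p = 0.00173) and Inhbb at -0.93 ± 0.23 (edgeR adjusted p = 0.00845). Tgfb1, Tgfb2, Tgfbr1 and Inhbb did not overlap between these groups, and Smad7 did. The share of all tested genes without overlap is not given here, so this describes single genes and is no result about the 10.

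Of the 10 genes Fst had the largest difference between these groups, at -1.38 ± 0.53 (SE, edgeR adjusted p = 0.0542), and its call hung on the setting. Without YMdIDR replicate 1 it was -2.20 (edgeR adjusted p = 0.00571), and without YAP-M replicate 3 it was -1.66 (0.0216). It was also called with DESeq2 (-1.42, adjusted p = 0.0128), median-ratio scaling (-1.42, 0.0493), no filter (-1.44, 0.045), quantile normalization (-1.71, 0.0216) and the replicate number as a block (-1.38, 0.031). Inhbb passed the fold threshold without YMdIDR replicate 1 (-1.32), without YAP-M replicate 4 (-1.03) and with the block (-1.06). Inhba (0.71 ± 0.30), Fstl3 (0.67 ± 0.36), Tgfb3 (0.27 ± 0.22) and Tgfbr2 (-0.14 ± 0.15) did not pass the test, with edgeR adjusted p of 0.0823, 0.151, 0.339 and 0.458.

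Within YAP-M, replicate 3 had the lowest level of 9 of the 10 genes and the highest of Inhbb, whereas it was the lowest library at 28.3% of all tested genes. Fst there was 160 CPM against 360 to 515 CPM in the other YAP-M libraries, and Inhba 103 CPM against 216 to 320 CPM. The 8 pericyte and fibroblast markers summed to 419 CPM in this library and to 1042, 1098 and 1282 CPM in replicates 1, 2 and 4. In YMdIDR the sums were 1245, 811 and 407 CPM in replicates 1, 2 and 3, next to 275, 124 and 43.0 CPM of Fst. Fst and this sum had the same order of libraries within each of these groups, Inhba followed it in YAP-M and not in YMdIDR, and Tgfb1 was nearly level across YMdIDR. That order was not particular to these markers. The microglia and macrophage sums shared it, at 2210.5, 1731.1 and 1523.2 CPM in YMdIDR and 1578.5, 1829.3, 1389.0 and 1831.9 CPM in YAP-M. The largest part of the pericyte and fibroblast sum in these groups was the collagen gene Col1a2, at 851, 582 and 197 CPM in YMdIDR and 556, 751, 180 and 942 CPM in YAP-M. The pericyte genes Rgs5 and Pdgfrb did not share its order: Rgs5 had 41.2, 51.1 and 75.9 CPM in YMdIDR and was highest in replicate 1 of YAP-M, and Pdgfrb was lowest in YMdIDR replicate 1.

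The pericyte and fibroblast markers summed to 197 to 211 CPM in both NSC-YAP libraries, where 7 of the 8 stayed under 1 CPM and Abcc9 and Lum had no count, while the SVZ libraries held 278 to 347 CPM. Nearly all of the NSC-YAP sum was Cspg4, at 195 to 209 CPM. It was called higher there than in SVZ and the other 7 lower, against 17.5% and 27.6% of all tested genes. Endothelial markers summed to 178 to 238 CPM in YMdIDR, 266 to 390 CPM in YAP-M, 22.2 to 23.3 CPM in NSC-YAP and 149 to 208 CPM in SVZ. The part of these cells in the levels of the 10 genes was not tested. Leaving out YAP-M replicate 3 ended no call of YAP-M over SVZ or NSC-YAP among the 10 genes.

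**Figure D4:**
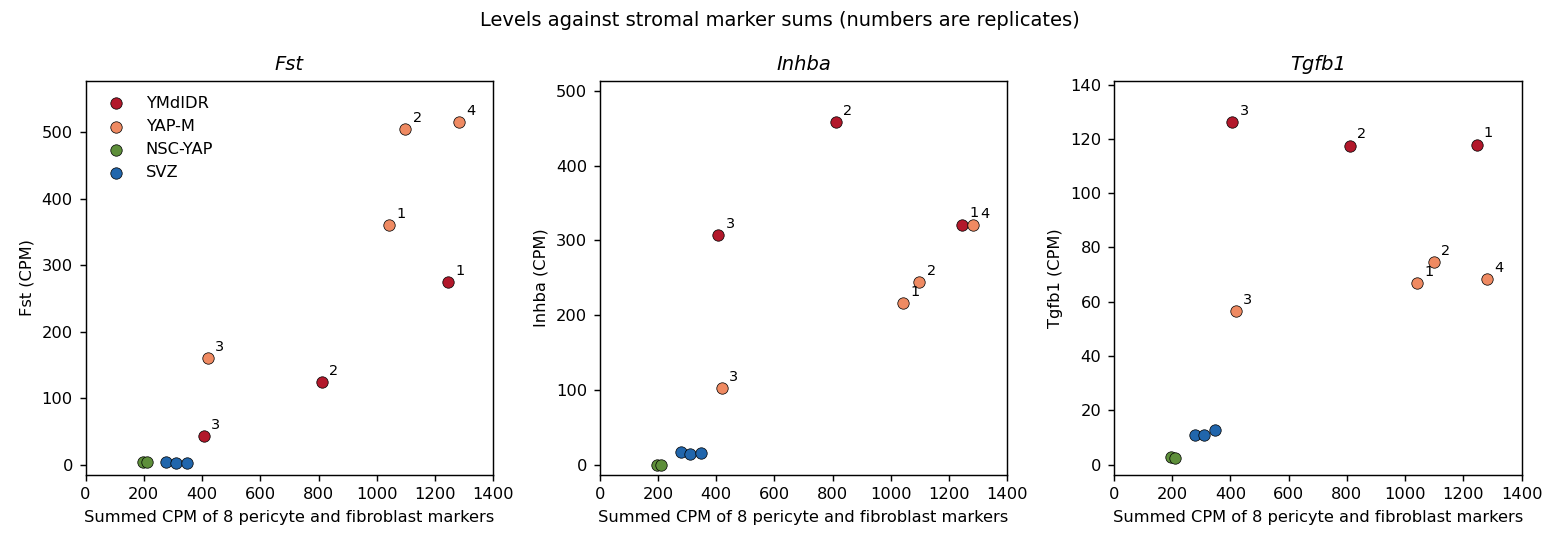
CPM of Fst, Inhba and Tgfb1 in each library against the summed CPM of 8 pericyte and fibroblast markers. Col1a2 is the largest part of the sum in YMdIDR and YAP-M, and replicate numbers stand beside the points of these groups. Fst runs with the sum within both groups, from 43.0 to 275 CPM in YMdIDR and from 160 to 515 CPM in YAP-M, while Tgfb1 stays at 118 to 126 CPM in YMdIDR. The microglia and macrophage sum, not drawn, has the same order of libraries as Fst within both groups.

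Of 11 other ligand genes of the superfamily that were listed, which leave out the BMP genes, 4 passed the filter on low counts: the inhibin alpha gene Inha, Gdf11, the stress-induced Gdf15 and the antagonist Lefty1. Over SVZ, 2 rose and 1 fell in YMdIDR (26.9% and 29.6% of all tested genes) and 2 rose and 2 fell in YAP-M (25.8% and 28.9%). Inha averaged 2.20 ± 0.88 CPM in YMdIDR (SD, n = 3) and 2.51 ± 0.26 CPM in YAP-M (SD, n = 4), against 16.1 ± 2.38 CPM in SVZ (SD, n = 3), or -2.87 ± 0.26 and -2.68 ± 0.23 (log2, SE, edgeR adjusted p = 1.57e-06 and 1.17e-06). Gdf11 stood at 35.9 to 39.7 CPM in YMdIDR, 13.8 to 18.3 CPM in YAP-M, 49.3 to 49.9 CPM in NSC-YAP and 45.6 to 46.5 CPM in SVZ, so YAP-M was apart from all others. It was higher in YMdIDR than in YAP-M by 1.26 ± 0.10 (edgeR adjusted p = 2.53e-05), lower in YAP-M than in SVZ at -1.56 ± 0.10 (edgeR adjusted p = 1.7e-07) and lower in YAP-M than in NSC-YAP at -1.67 ± 0.11 (edgeR adjusted p = 2e-07). Gdf15 rose by 4.36 ± 0.37 in YMdIDR over SVZ (edgeR adjusted p = 1.07e-06) and by 1.51 ± 0.27 over YAP-M (edgeR adjusted p = 0.00145), at a level of 2.70 to 5.48 CPM in YMdIDR. Lefty1, with 0 and 1 counts in the NSC-YAP libraries and 35, 30 and 10 counts in SVZ, was the gene of this list called between these groups (edgeR adjusted p = 0.000185).

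For activin and TGF-beta receptors outside the pair above the counts were near the shares of all tested genes. Of 8 tested, 3 rose and 3 fell in YMdIDR over SVZ (26.9% and 29.6% of all tested genes), 2 rose and 2 fell in YAP-M over SVZ (25.8% and 28.9%), and 1 rose and 3 fell in NSC-YAP over SVZ (17.5% and 27.6%). The activin type I receptor gene Acvr1b stood at 14.4 to 20.4 CPM in YMdIDR, 21.8 to 31.5 CPM in YAP-M, 61.0 to 61.8 CPM in NSC-YAP and 67.8 to 79.8 CPM in SVZ, and was lower in YMdIDR and YAP-M than in SVZ at -2.20 ± 0.17 and -1.58 ± 0.15 (log2, SE, edgeR adjusted p = 6.41e-07 and 3.36e-06). The activin type II receptor gene Acvr2b was instead higher over SVZ, by 1.80 ± 0.21 in YMdIDR and 1.44 ± 0.20 in YAP-M (edgeR adjusted p = 1.27e-05 and 4.84e-05), at 12.5, 9.77 and 3.59 CPM on average in YMdIDR, YAP-M and SVZ. Acvr1c, a receptor for Nodal and activins, reached 21.3 to 22.6 CPM in SVZ and at most 1.07 CPM in any other library, with log2 fold changes of -6.28 ± 0.65 in YMdIDR and -4.95 ± 0.51 in YAP-M (edgeR adjusted p = 4.56e-06 and 5.26e-06). The co-receptor gene Tgfbr3 (betaglycan) was lower in YMdIDR than in YAP-M at -2.08 ± 0.40 (edgeR adjusted p = 0.0021). Eng, the endothelial co-receptor endoglin, stood at 105, 42.9 and 35.5 CPM in YMdIDR against 27.1 to 33.8 CPM in YAP-M, and its call (1.02 ± 0.30, edgeR adjusted p = 0.0193) was lost with DESeq2, among other settings, and stood at 0.38 without YMdIDR replicate 1. Eng and the endothelial type I receptor gene Acvrl1 were lower in NSC-YAP than in SVZ at -5.36 ± 0.52 and -4.72 ± 0.27 (edgeR adjusted p = 4.8e-06 and 1.11e-07) and higher in YAP-M than in NSC-YAP by 5.35 ± 0.51 and 4.89 ± 0.26 (edgeR adjusted p = 3.33e-06 and 4.36e-08), next to the endothelial marker sums given above.

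Most genes for latency and activation of TGF-beta were called higher in YMdIDR and YAP-M. Over SVZ, 9 of 12 rose and 1 fell in YMdIDR (median 2.20, with 26.9% and 29.6% of all tested genes called), and 8 of 12 rose and none fell in YAP-M (median 1.98, with 25.8% and 28.9%). Over NSC-YAP, 8 rose and 4 fell (Ltbp3, Ltbp4, Itgav and Itgb8) in YMdIDR, with 27.4% and 20.4% of all tested genes called, and the same 8 and 4 in YAP-M, with 28.9% and 21.6%. NSC-YAP over SVZ had 4 that rose (Ltbp3, Ltbp4, Itgav and Itgb8) and 3 that fell (Lrrc32, Nrros and Itgb6), with 17.5% and 27.6% of all tested genes called. Thbs1, which encodes thrombospondin, an activator of latent TGF-beta and a known YAP-responsive gene, had 867 to 1400 CPM in YMdIDR and 919 to 1586 CPM in YAP-M, against 6.36 to 6.80 CPM in NSC-YAP and 3.22 to 4.99 CPM in SVZ. The protease gene Furin, whose product cleaves the ligand precursors, rose by 2.57 ± 0.13 in YMdIDR and 1.92 ± 0.12 in YAP-M over SVZ (log2, SE, edgeR adjusted p = 2.38e-08 and 1.34e-07). In NSC-YAP, the integrin gene Itgav (1.92 ± 0.19, edgeR adjusted p = 6.54e-06) and the latent binding protein gene Ltbp3 (2.06 ± 0.25, edgeR adjusted p = 2.29e-05) rose over SVZ. Nrros, which holds latent TGF-beta on myeloid cells, was higher in YAP-M than in NSC-YAP by 4.32 ± 0.31 (edgeR adjusted p = 3.98e-07), next to the macrophage sums given above. Between YMdIDR and YAP-M, Itgb8, whose product binds and activates latent TGF-beta, and the fibrillin gene Fbn1 were lower at -1.10 ± 0.19 and -1.51 ± 0.28 (edgeR adjusted p = 0.0011 and 0.00177), the first of them not without YAP-M replicate 1 (-0.99).

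Of 12 SMAD genes and regulators, 5 rose and 2 fell in YMdIDR over SVZ (26.9% and 29.6% of all tested genes) and 5 rose and 1 fell in YAP-M over SVZ (25.8% and 28.9%). For YAP-M against NSC-YAP edgeR called 0, where 28.9% of all tested genes were called higher and 21.6% lower. In that comparison 8 had an unadjusted p under 0.05, and DESeq2 called 1. For YMdIDR against YAP-M edgeR and DESeq2 called 0, with 5 at an unadjusted p under 0.05. Of all tested genes edgeR called 16.4% there. The corepressor gene Tgif1 rose by 4.57 ± 0.16 in YMdIDR, 3.95 ± 0.16 in YAP-M and 3.11 ± 0.17 in NSC-YAP over SVZ (edgeR adjusted p = 3.29e-09, 7.61e-09 and 8.08e-08). Its relative Tgif2 rose by 3.11 ± 0.29 in NSC-YAP (edgeR adjusted p = 3.62e-06), the ubiquitin ligase gene Smurf2, whose product works with SMAD7, by 1.21 ± 0.11 in YAP-M (edgeR adjusted p = 1.55e-06), and the phosphatase gene Ppm1a fell by 1.09 ± 0.08 in YMdIDR over SVZ (edgeR adjusted p = 3.78e-07).

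TGF-beta response genes were higher in YMdIDR and YAP-M and mixed in NSC-YAP. Of 18, 14 rose over SVZ in YMdIDR and none fell (median 3.30, with 26.9% and 29.6% of all tested genes called). In YAP-M 14 rose over SVZ and none fell (median 2.53, with 25.8% and 28.9%). In NSC-YAP 3 rose over SVZ and 9 fell (median -1.56, with 17.5% and 27.6%). Ctgf (Ccn2), a matricellular protein gene, had 423 to 893 CPM in YMdIDR, 804 to 998 CPM in YAP-M, 5 and 7 counts in the NSC-YAP libraries, and 9.95 to 11.3 CPM in SVZ. It rose over SVZ by 6.04 ± 0.27 in YMdIDR and 6.38 ± 0.27 in YAP-M (log2, SE, edgeR adjusted p = 1.39e-08 and 1.3e-08). Several genes of this list, Ctgf and Col1a1 among them, also answer to YAP and TEAD or mark fibroblasts, so they are not specific to TGF-beta. The feedback gene Skil was not called in any comparison, and Pmepa1, a feedback inhibitor at the receptors, was not called over SVZ in YMdIDR or YAP-M. Pdgfb, a growth factor gene of endothelium and other cells, was higher in YMdIDR than in YAP-M by 1.24 ± 0.10, and Tagln, a smooth muscle gene, by 1.84 ± 0.30 (edgeR adjusted p = 2.31e-05 and 0.000774). They were the 2 called of 18 in that comparison, where 16.4% of all tested genes were called. In NSC-YAP the cell cycle inhibitor gene Cdkn2b was higher than in SVZ by 4.60 ± 0.28 and Pdgfb lower at -5.01 ± 0.17 (edgeR adjusted p = 1.75e-07 and 6.43e-09). Ltbp2 and Skil stand in 2 of these lists.

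**Figure D5:**
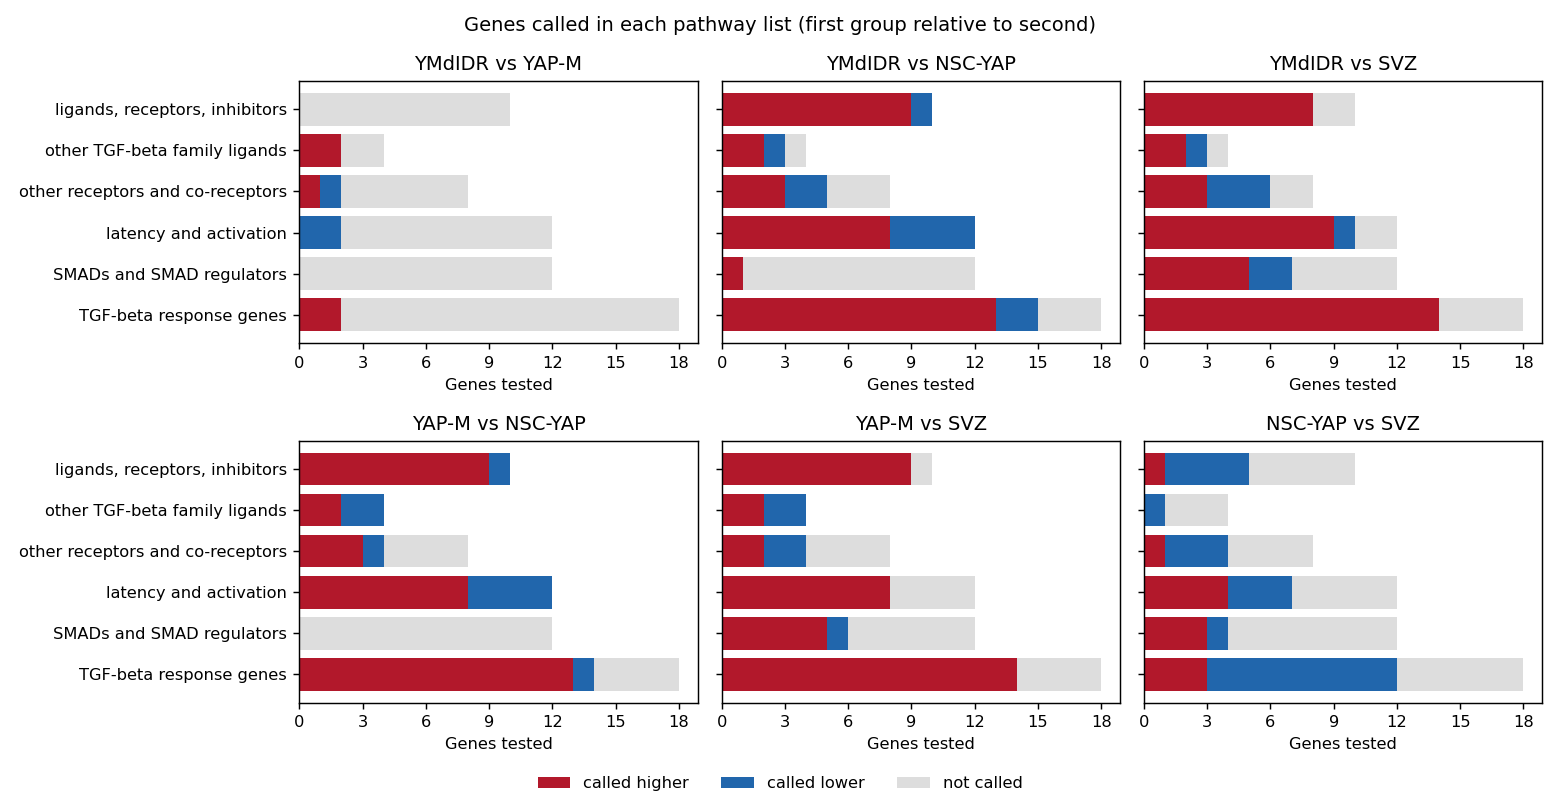
Number of tested genes called higher, called lower or not called in each list (bars) for the 6 comparisons, first group relative to second. The 10 ligand, receptor and inhibitor genes and the 18 response genes are mostly called higher in YMdIDR and YAP-M over SVZ and NSC-YAP, and few genes are called between YMdIDR and YAP-M.

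Promoter windows of 7 of the 10 genes were searched (Tgfb1, Tgfb2, Inhba, Inhbb, Tgfbr1, Tgfbr2 and Fstl3). Tgfb3 and Fst had no window in the RefSeq table. Smad7 was left out of the search, so nothing is said here of its promoter. On both strands the windows were searched for the TEAD core GGAATG, the SMAD element CAGACA and the AP-1 element TGANTCA. The TATA box TATAAA was searched on the gene's strand. No window held GGAATG or TGANTCA, which 14.7% and 7.81% of all windows hold. CAGACA, present in 21.0% of all windows, stood in those of Tgfb2 and Fstl3 and in a downstream window of Tgfbr1. The Tgfb2 and Fstl3 windows, chr1:186705940-186706239, minus strand, and chr10:79777024-79777323, plus strand, are shown with this element on either strand in capitals.
Tgfb2: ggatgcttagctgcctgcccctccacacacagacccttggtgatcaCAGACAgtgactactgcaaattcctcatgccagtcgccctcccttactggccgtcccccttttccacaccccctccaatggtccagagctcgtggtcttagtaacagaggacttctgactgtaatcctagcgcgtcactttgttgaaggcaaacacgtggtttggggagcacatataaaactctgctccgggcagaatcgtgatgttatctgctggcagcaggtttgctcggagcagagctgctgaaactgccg
Fstl3: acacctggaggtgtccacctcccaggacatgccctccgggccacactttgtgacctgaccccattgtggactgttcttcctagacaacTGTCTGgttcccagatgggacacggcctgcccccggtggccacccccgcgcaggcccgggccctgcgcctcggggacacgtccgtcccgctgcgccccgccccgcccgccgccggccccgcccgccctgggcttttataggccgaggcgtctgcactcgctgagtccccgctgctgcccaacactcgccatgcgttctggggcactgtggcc
TATAAA, present in 8.32% of windows, stood at position 220 of 300 in Tgfb2 and at position 160 in Inhba, counted from the 5′ end. A match is a description of letters, not of binding, and the searches cover no sequence outside these windows.

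The genes whose levels ran most like those of each member over the 12 libraries were taken by Pearson correlation of log2(CPM + 1), as a description that rests largely on the group differences. Closest to Tgfb1 were Cyba (0.999), Irf8 (0.997) and Bgn (0.997), to Inhba Pam (0.996), Hcls1 (0.996) and Spi1 (0.995), and to Tgfb3 Npnt (0.997), Ostf1 (0.996) and Runx3 (0.995). Tgfbr2 ran with Ahnak (0.998), Col5a2 (0.998) and Npr3 (0.997), Fst with Bicc1 (0.994), 2010300F17Rik (0.992) and Ereg (0.988), and Fstl3 with Cnn1 (0.994) and Actg2 (0.992). Tgfb2 ran with Msrb3 (0.990), Tgfbr1 with Vps54 (0.985), Smad7 with Trpv2 (0.990) and Inhbb with Kank4 (0.982). Among the 10 genes the highest correlation was between Inhba and Tgfb1 (0.987) and the lowest between Inhbb and Smad7 (-0.64).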

How the data were processed

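RNA-seq counts of 12 mouse libraries in 4 groups were used. The other 5 of 17 samples (ChIP-seq, CUT&RUN) were not analysed here. Each deposited table holds raw counts of a single library. TopHat2 and mm10 are named in the submitters' processing notes. How reads were counted, with or without strand, and the annotation are not given in the sources used, so overlapping or antisense genes may share reads. Per the file headers each of 53090 entries has coordinates, a gene length and a symbol. Entries of 1 symbol were summed (52850 symbols).

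The 18329 genes that reached 1 CPM in 2 or more libraries were tested with edgeR 4.0.16 (quasi-likelihood test, TMM scaling, 1 coefficient per group, all 12 libraries) in R 4.3.3, with Benjamini-Hochberg adjustment over all of them. The spread is shared by the groups. In a single library 3 counts come to 0.11 to 0.147 CPM. CPM per kb divides CPM by the listed length. The tests were tried on simulated data. Python 3.11.15 with matplotlib 3.10.9 made the figures.

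The 10 genes, the pathway and marker lists and the comparisons were chosen with earlier results of these data known, so no pattern here is independent support. Outside the 10, named genes were up to 2 called genes with the smallest adjusted p per pathway list and comparison (YMdIDR against NSC-YAP left out) and the genes most correlated with each member; Acvr2b, Skil, Pmepa1, Col1a1, further latency genes and the marker genes were named after their values were seen. Some genes that this rule picks are not reported here. Alternatives were median-ratio scaling, quantile normalization with limma 3.58.1, no filter, a minimum of 5 CPM, DESeq2 1.42.0, the compared groups alone, the replicate number as a block, the adjusted p alone and leaving out each library. No 2 replicates agreed within sampling noise (chi-square per gene of 3.90 or more).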

Additional observations from a re-analysis of the deposited data

How the results depend on the processing

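Of 1140 fold changes of the 10 genes under alternatives, 1118 kept their direction and side of the call, 6 lost the call, 14 gained it and 2 changed sign; among 852 for the other pathway genes named, 838 kept both and 14 lost the call. The sign changes were Fst in NSC-YAP over SVZ with the replicate number as a block (-0.28) and Fstl3 in the same comparison under quantile normalization (1.58); the cause was not tested. For YMdIDR against YAP-M, where none of the 10 genes was called, 1 was called with DESeq2, median-ratio scaling, no filter and quantile normalization, 2 with the replicate block and 5 by the adjusted p alone, which drops the fold threshold. By the adjusted p alone 7967 genes were called in that comparison, against 3003. Leaving out 1 library gave 0 to 2 called of the 10 for YMdIDR against YAP-M, with 2475 to 3793 of all genes. No count of calls for another comparison moved by over 1.5 times, and the called genes among the 10 were 7 to 8 for YMdIDR and 9 for YAP-M against SVZ, 10 for each against NSC-YAP, and 5 to 6 for NSC-YAP against SVZ when single libraries were left out. The titles share replicate numbers, but the deviations of same-numbered libraries of different groups correlated at over 0.1 in 4 of 15 pairs (-0.10 to 0.39, highest for YMdIDR and YAP-M replicate 2, against -0.28 to 0.26 over 38 other pairs) and not in every pair, so the numbers were not taken as pairs. With the block Inhbb in YAP-M over NSC-YAP (-0.997) and Smad7 in YMdIDR over SVZ (0.99) fell short of the fold threshold. With 2 NSC-YAP libraries, leaving out either assumes that the other varies like the remaining groups. Low counts limit Fstl3 in NSC-YAP and SVZ.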
